A study of Mus musculus with 10 samples.

Results

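The genes described here are 35 lysosomal genes of alveolar type 2 (AT2) cells, the lung epithelial cells that make and secrete surfactant. They comprise 7 membrane proteins, 8 cathepsins and other peptidases, 6 glycosidases, 4 proteins of lipid handling, 9 subunits or accessory proteins of the vacuolar proton pump (V-ATPase) and the transcription factor Tfeb. They were chosen by symbol for their role in the lysosome, with earlier results of these data known, and all 35 were found among the 16154 genes of the deposited table. RNA of sorted AT2 cells was sequenced from 5 HOILKO mice and 5 wild-type (WT) mice, all C57BL/6 and 8 to 10 weeks old. HOILKO mice are labelled HOIL-1L -/-, while the study's design text describes Cre recombinase under the promoter of surfactant protein C (SPC) acting on a floxed HOIL-1L allele, so the deletion is directed at cells with that promoter on. No treatment is named for either group, and a letter N in every library title is not explained. HOIL-1L, encoded by Rbck1, is a subunit of the complex that attaches linear ubiquitin chains to proteins. The labels do not say whether libraries came from single or pooled animals, so p-values measure the spread between these libraries, which may be partly technical.

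Values are the authors' normalized counts divided by one constant, so that a library sums to about 1 M on average (written per M below). The library depth was estimated at 7.69 to 13.2 M reads. This estimate is rough, since whole reads could not be recovered from the values. Rbck1 went against the label in 2 libraries: it stood at 59.3 per M in the library labelled HOILKO 1, against 29.8 to 38.8 per M in the other HOILKO libraries, and at 29.7 per M in the library labelled WT 2, against 56.1 to 57.8 per M in the other WT libraries. The sources used here do not say which exons the deletion removes. The log2 fold change of Rbck1, HOILKO minus WT, was −0.34 ± 0.18 (SE) with all 10 libraries (limma adjusted p = 0.580). With the 8 that match their labels it was −0.67 ± 0.09 (limma adjusted p = 0.00167). Those 8 were chosen by Rbck1 itself, so that p-value is no test of its change. Counts over the genes are therefore given with both sets of libraries, and values of single genes say which set they come from. The mouse numbers in the titles also fall into 2 separate runs. The second run holds HOILKO 4 and 5 and WT 4, 5 and 6, all of them male judged from Xist and Y-linked genes. The first run holds HOILKO 1, 2 and 3 and WT 2 and 3, of which HOILKO 2, HOILKO 3 and WT 2 are female. The labels do not call these runs batches. All 13 listed AT2 markers were present, and their summed level was 226732 to 263013 per M in HOILKO libraries and 228042 to 273751 per M in WT libraries.

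Lysosomes degrade proteins, glycans and lipids with acid hydrolases, in a lumen that the V-ATPase acidifies by pumping protons. Hydrolases reach them through mannose 6-phosphate receptors, and heavily glycosylated membrane proteins such as LAMP1 and LAMP2 line the inside of the limiting membrane. In AT2 cells the lamellar body, which stores surfactant phospholipid and protein before secretion, is a lysosome-related organelle that is acidic and carries lysosomal hydrolases and membrane proteins. TFEB is a transcription factor that binds an E-box in the promoters of many lysosomal genes, the CLEAR element, which is built around the core CACGTG.

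Promoter sequence was therefore read for the members from 250 bases before to 50 bases after each RefSeq start (build GRCm38.p6). An entry was found for 30 of the 35 members, all but Asah1, Atp6v1b2, Atp6v1h, Ctsb and Npc1. The core CACGTG, a palindrome that reads the same on both strands, was present in 11 of the 30 (36.7%), against 11.9% of the 9754 tested genes with an entry and 8.09% of all 27025 genes with one. Among the further lysosomal pathway genes described below, it was in 25 of the 93 with an entry (26.9%). The 11 members were the membrane proteins Lamp1, Cln3 and Mcoln1, the peptidases Ctsa, Ctsd and Ctsl, the glycosidases Gaa, Gla and Glb1, and the pump subunits Atp6v0d1 and Atp6v1a. Longer forms that contain the core were rarer. TCACGTG, searched on both strands, was in 10 members (33.3%, against 7.04% of tested genes), and the palindrome TCACGTGA in 7 (23.3%, against 2.21%). In the further pathway genes these shares were 24.7% and 9.68%. A match of letters is a description and not a site shown to be bound. Stretches around the core are shown for 4 members of different roles, a membrane protein, 2 glycosidases and a pump subunit, 5′ to 3′ on the strand of the gene with CACGTG in capitals.
Lamp1: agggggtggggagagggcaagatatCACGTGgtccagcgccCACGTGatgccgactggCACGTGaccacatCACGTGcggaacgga
Gaa: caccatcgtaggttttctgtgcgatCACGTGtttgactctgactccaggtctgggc
Glb1: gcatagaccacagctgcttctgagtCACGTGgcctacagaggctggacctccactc
Atp6v1a: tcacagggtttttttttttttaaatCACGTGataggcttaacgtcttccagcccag

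The Lamp1 stretch lies at chr8:13159075-13159160 on the plus strand, just before the gene, and holds 4 cores, the last of them 9 bases before the start. The Gaa stretch (chr11:119267798-119267853, plus strand) holds its core 134 bases before the start, and the Glb1 stretch (chr9:114401005-114401060, plus strand) 42 bases before it. The Atp6v1a stretch (chr16:44139360-44139415, minus strand) holds its core 125 bases before the start.

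Most of the members were well expressed. With values divided by the length of all annotated exons (per M per kb), the median member stood at 43.0. This was above 93.5% of the tested genes with a known exon length, whose median was 4.63. Shares of tested genes in this paragraph are over those genes. The most abundant was Npc2, which binds cholesterol in the lysosomal lumen and hands it to NPC1, at 798 ± 66.9 per M per kb (SD over 10 libraries), above 99.7% of tested genes. Next came Lamp1 at 249 ± 14.0, Ctsz, a carboxypeptidase, at 173 ± 21.3, and Ctsc, which activates serine proteases, at 163 ± 23.0 per M per kb. Ctsd, an aspartic protease, reached 139 ± 12.2 and the tetraspanin Cd63 119.5 ± 19.0 per M per kb. Within libraries, Ctsz was above Ctsc per kb in 7 of 10 and Ctsd above Cd63 in 10 of 10. The lowest member was Lipa, lysosomal acid lipase, at 0.225 ± 0.132 per M per kb, above 1.82% of tested genes. Tfeb itself stood at 1.99 ± 0.254, the glycosidase Gla at 2.01 ± 0.258 and Ctss, a cysteine protease abundant in macrophages and other antigen-presenting cells, at 2.29 ± 1.89 per M per kb. The length used moves some ranks: with the longest principal transcript instead, Npc2 stayed first at 1316 per M per kb and Lipa last at 0.513, while Cd63 took the second place at 397 and Ctsc the third at 380.5 per M per kb.

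**Figure D1:**
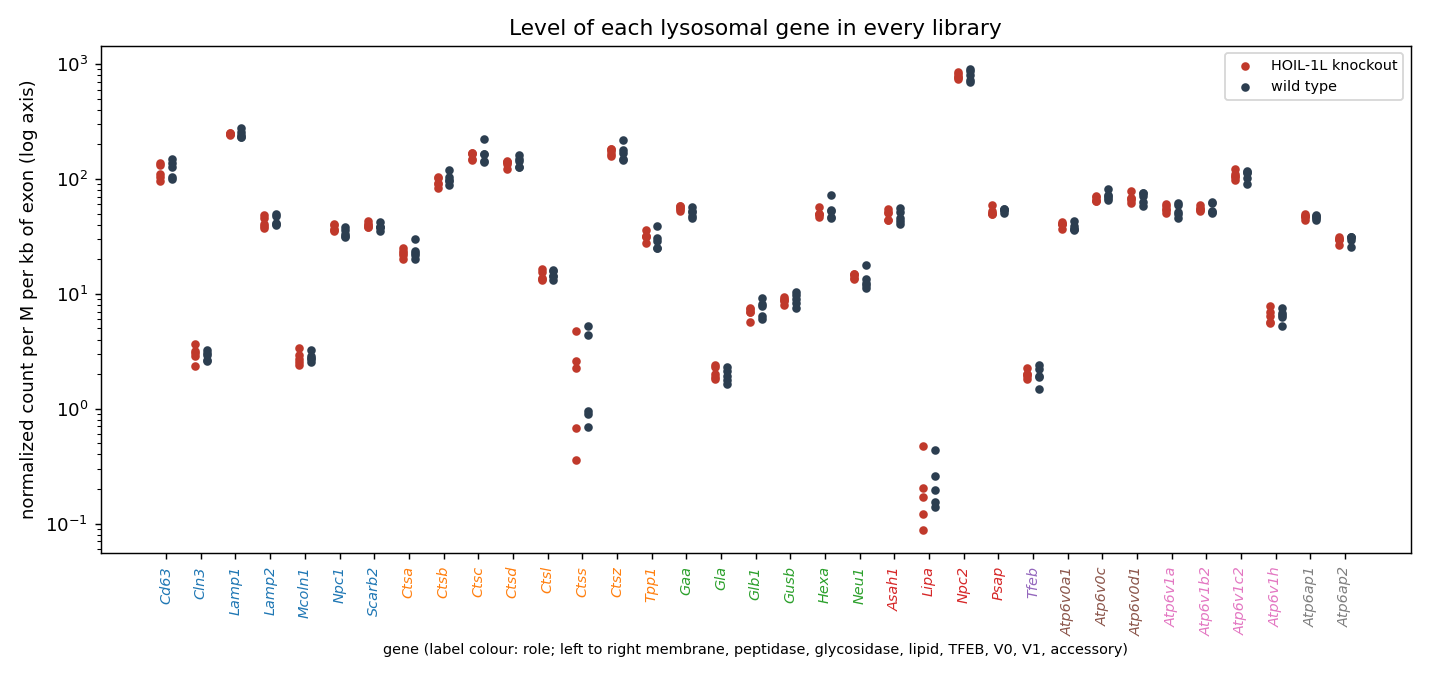
Level of the 35 lysosomal genes in normalized counts per M per kb of exon on a log axis, grouped by role, with a point for each of the 10 libraries coloured by group. Npc2 lies highest at a mean of 798 and Lipa lowest at 0.225 per M per kb, and only Ctss and Lipa spread widely between libraries.

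Except for Ctss and Lipa, the members differed little between libraries. In the other 33 the coefficient of variation over all 10 libraries was 3.86% (Atp6ap1, an accessory protein of the pump) to 15.9% (Cd63), and the highest library was 1.12 to 1.63 times the lowest. For Ctss the highest library was 14.7 times the lowest and for Lipa 5.45 times. The library labelled WT 2 was the highest of the 10 for 17 of the 35 members, where it was the highest for 14.0% of all tested genes. The median member lay 0.20 above its mean over libraries there on the log2 scale, and in the other libraries between −0.13 (WT 5) and 0.07 (HOILKO 1).

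Npc2 had 4642, 4432, 4203, 4191 and 4053 per M in HOILKO 1 to 5, against 4416, 4773, 4936, 3945 and 3825 per M in WT 2 to 6. The 5 HOILKO libraries lie inside the range of the WT libraries. Lamp1 (chr8:13159161-13175338) had 651, 674, 659.8, 661 and 669 per M in HOILKO libraries and 751, 649.8, 692, 622 and 620.2 per M in WT libraries. Here too the HOILKO values sit within the WT range, and WT 2 is the highest. Ctsz had 264, 264, 228, 236 and 251 per M in HOILKO libraries and 317, 258, 245, 211 and 215 per M in WT libraries, again with WT 2 highest. The group means of these abundant genes were close, at 4304 ± 233 and 4379 ± 491 per M for Npc2 in HOILKO and WT libraries. Tfeb (chr17:47737030-47792419) had 10.3, 12.7, 11.3, 10.9 and 11.4 per M in HOILKO libraries and 12.5, 10.8, 8.46, 13.7 and 10.8 per M in WT libraries, and the means of both groups were 11.3 per M. Lipa had 1.15, 3.22, 1.38, 0.82 and 0.591 per M in HOILKO libraries and 1.77, 2.97, 1.33, 1.04 and 0.94 per M in WT libraries. At such levels a value rests on few reads, and the groups overlap fully.

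Between the libraries labelled HOILKO and WT, no change was detected in any of the 35 genes. Genes that reached 1 per M in 5 or more libraries were tested on log2(per M + 0.5) with limma and Benjamini-Hochberg adjustment over all of them. With all 10 libraries, limma called 0 of 35 members at an adjusted p under 0.05, and 0.0% of the 12946 tested genes. At an unadjusted p under 0.05 there were 0 members, where 9.48% of all tested genes reached that level. Of the members 19 had a log2 fold change (HOILKO minus WT) below 0 and 16 above it, and 48.7% of all tested genes were below 0. The median member changed by −0.01 and the extremes were −0.19 (Lipa) and 0.14 (Npc1). For 33 of the 35 members, all but Ctss and Lipa, the 95% interval of the fold change lay within 1.5-fold in either direction, as it did for 79.7% of all tested genes. The groups overlapped for every member, where they did not overlap for 1.59% of all tested genes.

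The member with the smallest p was Gaa (chr11:119267887-119285454), the acid alpha-glucosidase that degrades lysosomal glycogen. It had 254, 279, 267, 261 and 280.2 per M in HOILKO libraries and 273, 220.1, 249, 228 and 252 per M in WT libraries, or 268 ± 11.5 and 245 ± 21.2 per M (SD, n = 5 each). All HOILKO libraries were above WT 3 to 6, and WT 2 lay among them. The log2 fold change was 0.14 ± 0.07 (SE), with a limma adjusted p of 0.541. Npc1, the membrane protein that exports cholesterol from the lysosome, had 396, 448, 406, 461 and 417 per M in HOILKO libraries and 373, 351, 359, 411 and 436 per M in WT libraries. WT 5 and 6 fell inside the HOILKO range, and the log2 fold change was 0.14 ± 0.07 with 10 libraries (limma adjusted p = 0.569) and 0.16 ± 0.08 with 8 (limma adjusted p = 0.415).

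Ctsb, an abundant cysteine protease, had 621, 636, 554, 507 and 545 per M in HOILKO libraries and 719.6, 635, 599, 539 and 580.4 per M in WT libraries. The groups overlapped over most of their range (log2 fold change −0.10 ± 0.08 with 10 libraries, limma adjusted p = 0.725, and −0.07 ± 0.08 with 8, adjusted p = 0.739). Glb1, the beta-galactosidase used as a marker of senescent cells, had 20.9, 22.2, 20.8, 17.1 and 22.7 per M in HOILKO libraries and 27.8, 24.7, 18.04, 19.5 and 23.8 per M in WT libraries. Its highest 3 values were WT libraries and its lowest a HOILKO library (log2 fold change −0.12 ± 0.12 with 10 libraries, limma adjusted p = 0.770, and −0.05 ± 0.12 with 8, adjusted p = 0.895). Glb1 shares its strand and exons with Tmppe, and Ctsb lies opposite Fdft1, so reads of these pairs may have been split or shared in the authors' counting. The same limit applies to other members whose exons overlap another gene. These are Ctsd and Ctsl on the same strand, and Lamp1, Ctsz, Ctsa, Hexa, Cln3, Npc1 and Atp6v1h on the opposite strand.

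**Figure D2:**
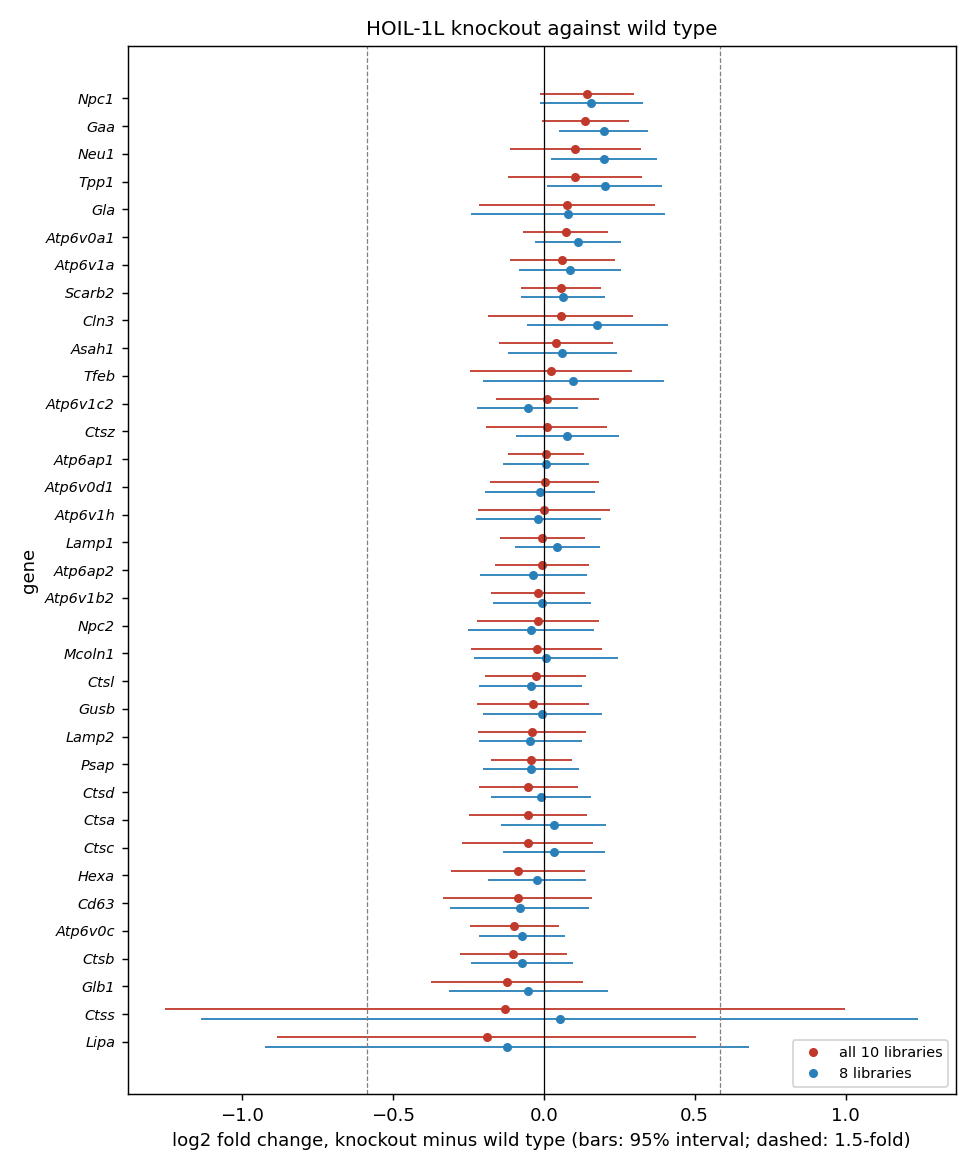
Log2 fold change, HOILKO minus WT, of each of the 35 genes with its 95% interval, with all 10 libraries and with the 8 whose Rbck1 matches the label. Intervals cover 0 for all members with 10 libraries, and for all but Gaa, Neu1 and Tpp1 with 8; those of Ctss and Lipa alone reach past the dashed lines at 1.5-fold.

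Without HOILKO 1 and WT 2, limma again called 0 of 35 members, where it called 0.402% of all tested genes. In this set HOILKO 2 and 3 are female and every WT library is male, so genotype and sex partly coincide. The runs are also unevenly split between the groups. The smallest adjusted p among members was 0.239, and the median log2 fold change was 0.01, with 17 members below 0 (49.9% of all tested genes). The 95% interval lay within 1.5-fold for 33 members, again all but Ctss and Lipa, and for 74.5% of all tested genes. At an unadjusted p under 0.05 there were 3 members, Gaa, Neu1 and Tpp1, where 13.1% of all tested genes reached that level. The groups did not overlap for 2 members, Gaa and Neu1, where they did not overlap for 6.71% of all tested genes. Gaa averaged 272 ± 9.17 per M in the 4 HOILKO libraries and 237 ± 15.8 per M in the 4 WT libraries (log2 fold change 0.20 ± 0.07, limma adjusted p = 0.239).

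Neu1 (chr17:34931253-34935953), the sialidase that trims sialic acid from glycoproteins, had 50.1, 55.4, 54.6 and 50.8 per M in HOILKO 2 to 5, against 49.9, 42.2, 45.0 and 46.3 per M in WT 3 to 6. The lowest HOILKO library exceeded the highest WT library by a small margin, and the log2 fold change was 0.20 ± 0.08 (limma adjusted p = 0.316). The 2 libraries at odds with their labels had 55.3 (HOILKO 1) and 67.1 per M (WT 2), so with all 10 libraries the log2 fold change was 0.11 ± 0.10 (limma adjusted p = 0.771). Tpp1, a serine peptidase that cuts tripeptides from the ends of proteins, had 187.5, 160.2, 144 and 164 per M in HOILKO 2 to 5 and 148, 131, 131 and 159.8 per M in WT 3 to 6. Its groups overlapped, with HOILKO 4 below WT 3 and WT 6 (log2 fold change 0.20 ± 0.09, limma adjusted p = 0.353). For Tpp1 the libraries at odds with their labels had 165 (HOILKO 1) and 201.1 per M (WT 2), and the log2 fold change with all 10 was 0.10 ± 0.10 (limma adjusted p = 0.779).

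Within the second run alone, which holds none of the libraries at odds with their labels, 18 of 35 members were below 0, against 48.2% of all tested genes. The median log2 fold change was −0.00, and limma called 0 members and 41 of 12946 genes. Within the first run alone, which holds both of them, 29 of 35 members were below 0, against 49.7% of all tested genes. The median member was at −0.08, and limma called 0 members and 0 genes. Without both of those libraries, which leaves WT 3 as the only WT library there, 22 of 35 members were below 0, against 51.3% of all tested genes, with a median of −0.06. The difference between the runs in the HOILKO contrast, tested as an interaction, was called for 0 of 35 members and 0.0154% of all tested genes, with a smallest adjusted p of 0.849 among members.

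By role, the median log2 fold change with 10 libraries was −0.00 for the 7 membrane proteins, −0.05 for the 8 peptidases, 0.02 for the 6 glycosidases, −0.03 for the 4 lipid-handling proteins and 0.00 for the 9 V-ATPase genes. With 8 libraries the medians were 0.05 for the membrane proteins, 0.03 for the peptidases, 0.04 for the glycosidases, −0.04 for the lipid-handling proteins and −0.01 for the V-ATPase genes, so that the sign turned for the membrane proteins, the peptidases and the V-ATPase genes. None of these groups held a called gene with either set. The remaining membrane proteins were Lamp2, Cd63, Scarb2, the receptor that carries beta-glucocerebrosidase to the lysosome, Cln3, whose loss causes a juvenile neuronal storage disease, and Mcoln1, a cation channel. They ranged in log2 fold change with 10 libraries, as do the values that follow, from −0.09 (Cd63) to 0.06 (Scarb2 and Cln3). Among the peptidases not yet described, Ctsa (−0.05), Ctsc (−0.05), Ctsd (−0.05) and Ctsl (−0.03) all had 95% intervals that covered 0. Among the glycosidases, Hexa, the alpha subunit of beta-hexosaminidase, had −0.09, Gusb, the beta-glucuronidase, −0.03, and Gla, the alpha-galactosidase A, 0.08. Psap, the precursor of the saposins that present sphingolipids to hydrolases, had −0.04, and Asah1, the acid ceramidase, 0.04.

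The V-ATPase has a membrane sector, V0, which conducts protons, and a cytosolic sector, V1, which hydrolyses ATP, and several subunits are made from paralogous genes with different tissue use. Of the listed V0 genes, Atp6v0c, the proteolipid of the proton-carrying ring, had 243, 234, 218, 217 and 221 per M in HOILKO libraries and 279, 240.3, 247, 220.3 and 230.0 per M in WT libraries. The lowest 2 values were HOILKO libraries and the highest 2 WT libraries, with the rest mixed (log2 fold change −0.10 ± 0.07 with 10 libraries, limma adjusted p = 0.669, and −0.07 ± 0.07 with 8, adjusted p = 0.681). Atp6v0c has processed pseudogenes, Atp6v0c-ps1 and Atp6v0c-ps2, that could have taken some of its reads, and Cd63 likewise has Cd63-ps. Atp6v0a1, an a subunit of the stalk of V0, had 268, 242, 268, 277 and 267 per M in HOILKO libraries and 285, 236, 253, 241 and 243 per M in WT libraries. Here 4 HOILKO libraries were above all WT libraries other than WT 2, and HOILKO 2 lay among the low WT values (log2 fold change 0.07 ± 0.07 with 10 libraries, limma adjusted p = 0.749, and 0.11 ± 0.07 with 8, adjusted p = 0.483). For Atp6v0d1, Atp6v1a, Atp6v1b2, Atp6v1c2, Atp6v1h, Atp6ap1 and Atp6ap2 the log2 fold change with 10 libraries was −0.02 to 0.06.

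In the a, B, C and d subunit families, the paralogs compared here, 1 gene dominated in AT2 cells. Per kb of exon, Atp6v1c2 was 14.6, 12.5, 15.9, 17.9 and 15.6 times as high as Atp6v1c1 in HOILKO 1 to 5, against 12.01, 12.09, 18.04, 15.94 and 16.9 times in WT 2 to 6. The c2 form, known for its enrichment in lung and kidney, thus outweighed the widely expressed c1 form in every library, and the ratio averaged 15.3 ± 1.97 in HOILKO and 14.99 ± 2.79 in WT libraries (SD, n = 5 each). Atp6v1c2 overlaps Pdia6 on the opposite strand, and whether the authors counted by strand is not given in the sources used here. Over the libraries Atp6v0a1 was 6.07 to 9.01 times as high per kb as Atp6v0a2, 10.7 to 16.1 times as high as Tcirg1, the a3 form, and 10.4 to 31.0 times as high as Atp6v0a4. Atp6v1b2 was 63.9 to 230.3 times as high per kb as Atp6v1b1, the kidney and inner-ear form of the B subunit. Atp6v1b1 was low, so this ratio rests on few of its reads.

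**Figure D3:**
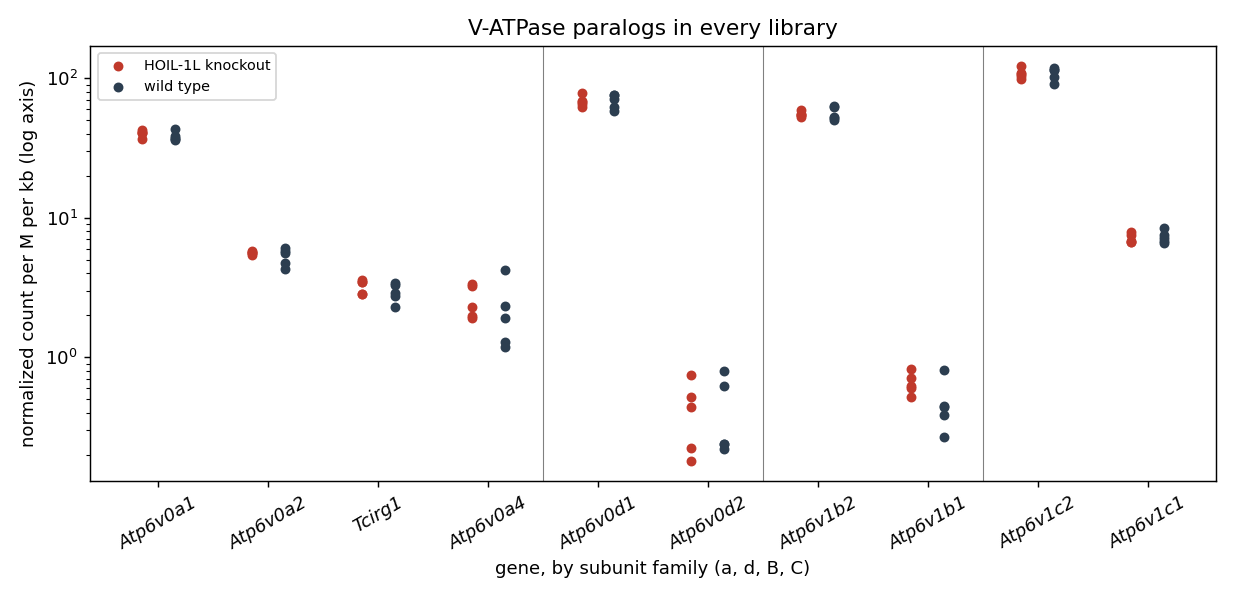
Level of V-ATPase paralogs in normalized counts per M per kb of exon on a log axis, by subunit family, with a point for each library, HOILKO left of WT. In each family the first gene is at least 6.07 times as high as any of the others in every library, and the HOILKO and WT libraries overlap for every gene.

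Between the runs of mouse numbers, most members were lower in the second run and 2 passed the test. With genotype in the model, 31 of 35 members had a log2 fold change (second run minus first run) below 0, against 51.0% of all tested genes, and the median member was at −0.17, against −0.00 over all tested genes. Limma called 2 members as lower in the second run, Ctss and Asah1, and 0 as higher, where 0.309% of all tested genes were called lower and 0.626% in either direction. At an unadjusted p under 0.05 there were 19 members, where 15.8% of all tested genes reached that level, and 18 of them were lower, where 7.55% of all genes were. The 95% interval lay within 1.5-fold in either direction for 33 members and for 78.4% of all tested genes. The run coincides with sex in part, since the female libraries are all in the first run, and with a set of macrophage genes described below. In bulk samples, fewer cells of a type and less RNA per cell cannot be told apart.

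Ctss (chr3:95526786-95556403) had 0.927, 0.487, 1.21, 1.31 and 0.94 per M in the second run (HOILKO 4 and 5, then WT 4, 5 and 6), against 3.09, 6.47, 3.53, 5.97 and 7.18 per M in the first run (HOILKO 1, 2 and 3, then WT 2 and 3). Every library of the second run was below every library of the first. Ctss reached 1 per M in the second run only in WT 4 and 5. It thus passed the filter only through the first run, so a difference was built into its choice. The means were 0.975 ± 0.319 and 5.25 ± 1.83 per M (SD, n = 5 each), a log2 fold change of −2.03 ± 0.22 (limma adjusted p = 0.000165). With sex in the model it was −1.92 (adjusted p = 0.00624), among male libraries alone −1.93 (adjusted p = 0.0138), and without a filter on low values −2.03 (adjusted p = 0.0129). By genotype the same values ran from 0.487 to 6.47 per M in HOILKO libraries and from 0.94 to 7.18 per M in WT libraries, with a log2 fold change of −0.13 ± 0.53 with 10 libraries (limma adjusted p = 0.955) and 0.05 ± 0.56 with 8 (limma adjusted p = 0.978). With run as covariate the genotype difference of Ctss was −0.54 ± 0.22 with 10 libraries (unadjusted p = 0.0276, limma adjusted p = 0.322) and −0.49 ± 0.26 with 8 (limma adjusted p = 0.388). With the replicate block it was −0.49 with 10 libraries and −0.69 with 8 (limma adjusted p 0.314 and 0.209). With sex as covariate it was −0.44 ± 0.41 with 10 libraries and −1.03 ± 0.51 with 8 (limma adjusted p 0.739 and 0.451). Within the second run alone it was −0.47 and within the first −0.60, and none of these fits called it. Lipa averaged 0.946 ± 0.275 per M in the second run and 2.10 ± 0.94 per M in the first, with overlap between the runs (log2 fold change −0.86 ± 0.26, limma adjusted p = 0.129). Lipa too passed the filter only through the first run.

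Part of the listed markers of macrophages and monocytes separated the libraries in the same way. Of 18 such genes listed, 14 were in the table and 6 passed the filter on low values, and limma called 4 of these 6 as lower in the second run: Chil3 (−2.93), Itgax (−2.14), Mrc1 (−2.04) and Ear2 (−1.89), all log2 fold changes. Itgax, Mrc1 and Ear2 passed the filter only through the first run, so a difference was built into their choice. The other tested markers, Cd14 and Csf1r, were not called, and 1 of the 6 was above 0, at 0.20. The summed level of all 14 was 61.9 to 98.9 per M in the second run and 93.1 to 142 per M in the first, most of it from Cd14 and Csf1r. By this sum the runs overlapped. The summed level of the 12 markers other than Cd14 and Csf1r was 1.76 to 5.60 per M in the second run and 22.7 to 36.9 per M in the first. That sum leaves out both tested markers that were not called, so its separation of the runs was partly built into its choice. By genotype that sum was 1.76 to 35.7 per M in HOILKO libraries and 2.87 to 36.9 per M in WT libraries. Its part in the lower Ctss and in the lower values of other members was not tested. Markers of ciliated cells went the other way, with 4 of 5 called higher in the second run and a median log2 fold change of 0.61, while 0 of 13 AT2 markers were called and 9 of 13 were below 0.

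Asah1 (chr8:41340197-41374773) was chosen for description after its values were seen. It had 149, 149, 139, 147 and 156 per M in the second run, against 186, 174, 172, 191 and 176 per M in the first. The runs did not overlap, and the log2 fold change was −0.28 ± 0.06 (limma adjusted p = 0.0403). The call of Asah1 was lost when any 1 library was left out (adjusted p 0.0533 to 0.190) and without both libraries at odds with their labels (0.261), whereas that of Ctss was kept in each of these. With sex in the model the log2 fold change of Asah1 was −0.29 (limma adjusted p = 0.164), and among male libraries alone it was −0.28 (limma adjusted p = 0.202).

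The same direction was seen in other members, also chosen after their values were seen, that did not pass the test. Cd63 had 384, 351, 470.0, 381 and 368 per M in the second run and 506, 486, 406, 548 and 503 per M in the first, with only WT 4 and HOILKO 3 crossing over (log2 fold change −0.36 ± 0.08, limma adjusted p = 0.0551). Cd63 was called without HOILKO 3 (limma adjusted p = 0.0329), without WT 4 (0.0211) and with array weights (0.0384), and over all alternatives its adjusted p was 0.0211 to 0.264. Atp6v1a, the catalytic A subunit of the pump, had 309, 323, 276, 298 and 311 per M in the second run and 363, 333, 350.0, 374 and 357 per M in the first. These runs did not overlap (log2 fold change −0.23 ± 0.06, limma adjusted p = 0.0997). All libraries of the second run were below all of the first for 3 members, Ctss, Asah1 and Atp6v1a, where that held for 1.4% of all tested genes. Lamp2 averaged 378 ± 13.3 per M in the second run and 443 ± 32.0 per M in the first (log2 fold change −0.24 ± 0.06, limma adjusted p = 0.0781).

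**Figure D4:**
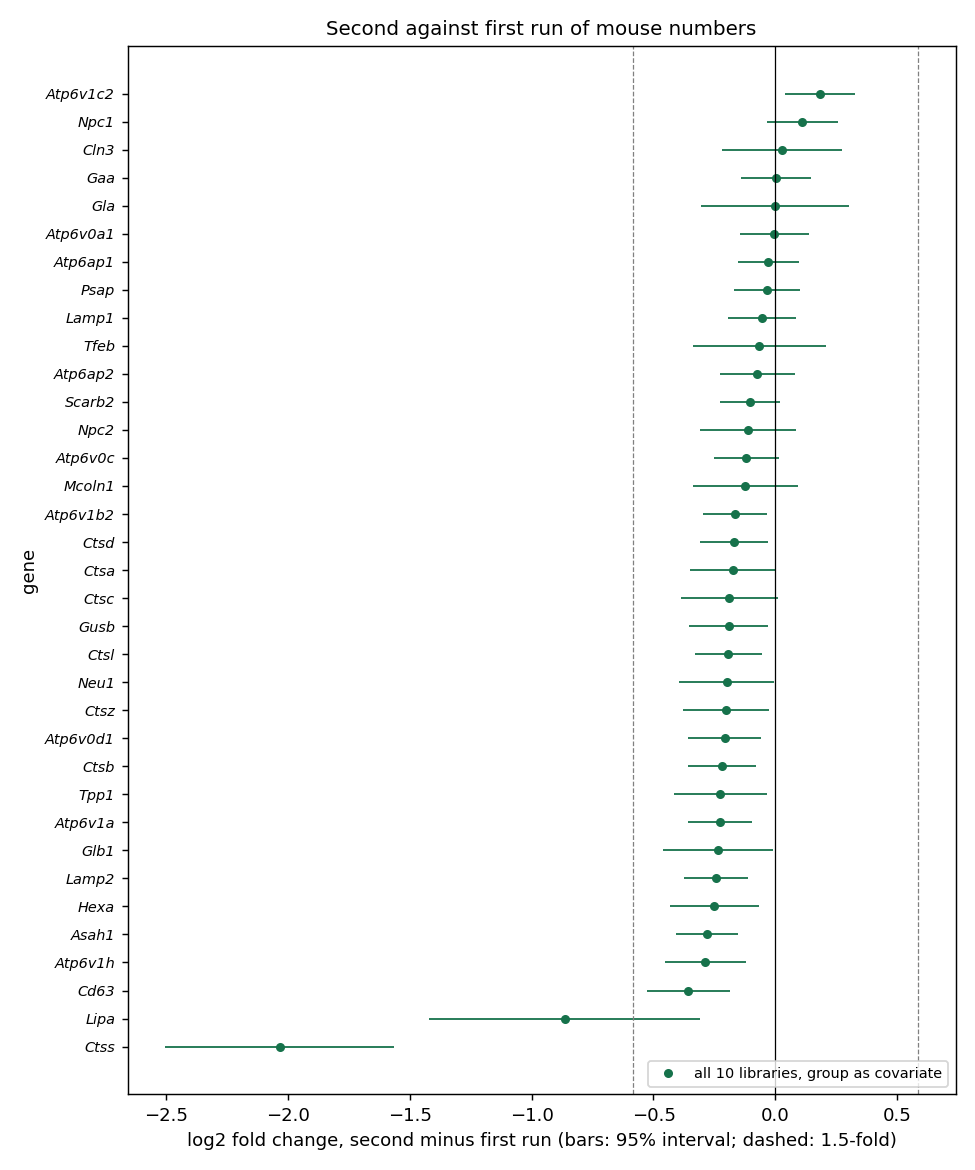
Log2 fold change, second minus first run of mouse numbers, of each of the 35 genes with its 95% interval, with genotype in the model. Of the 35 points 31 lie below 0; Ctss at −2.03 and Lipa at −0.86 lie far below the other members, and Atp6v1c2 at 0.18 lies highest.

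By role, the second run was below the first for 8 of 8 peptidases (median log2 fold change −0.20), 4 of 4 lipid-handling proteins (−0.20), 5 of 6 glycosidases (−0.20), 8 of 9 V-ATPase genes (−0.12) and 5 of 7 membrane proteins (−0.10). The member farthest in the other direction was Atp6v1c2 (chr12:17284721-17329359). It had 267, 226, 257, 247 and 249 per M in the second run and 239, 215, 233, 198 and 221 per M in the first. HOILKO 5 in the second run fell below HOILKO 1 and 3 in the first, and the log2 fold change was 0.18 ± 0.07 (limma adjusted p = 0.201). The ratio of Atp6v1c2 to Atp6v1c1 per kb was 15.6 to 18.04 in the second run and 12.01 to 15.89 in the first. Atp6v0d2, a paralog of the member Atp6v0d1 known from osteoclasts and macrophages, was low throughout, and per kb Atp6v0d1 was 241 to 360.5 times as high in the second run and 91.5 to 155 times in the first. These ratios rest on few reads of Atp6v0d2. Npc1 (0.11), Cln3 (0.03) and Gaa (0.00) were the only other members not below 0.

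The lower level of the members in the second run depended in size on WT 2. Without that library the median member was at −0.11, and without both libraries at odds with their labels it was at −0.10, with 28 of 35 members below 0. Scaling all libraries to equal totals left 27 of 35 members below 0, against 41.7% of all tested genes, and changed the split of called genes to 64 higher and 33 lower, against 41 higher and 40 lower with the values as deposited. By promoter core, the median log2 fold change between runs was −0.17 for the 11 members that hold CACGTG and −0.19 for the 19 whose entry lacks it.

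**Figure D5:**
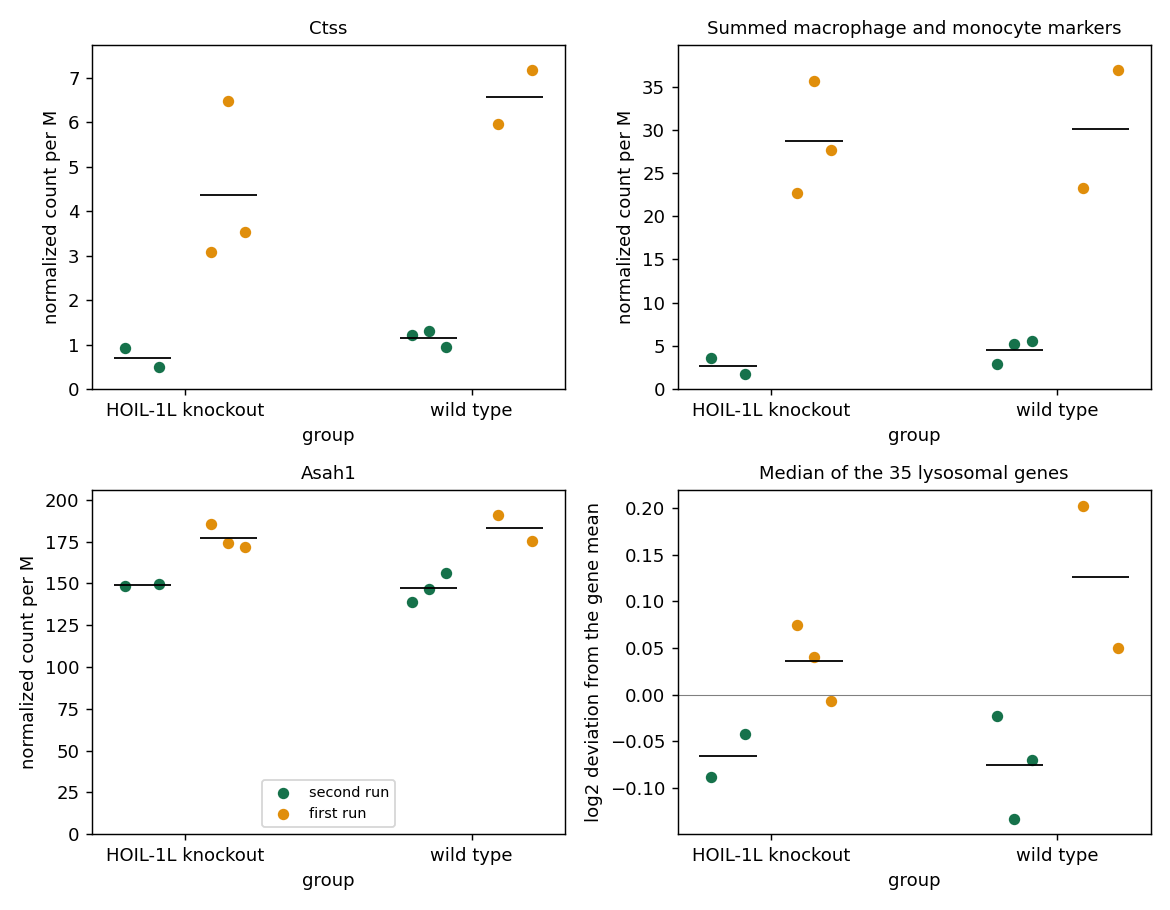
Normalized counts per M of Ctss, of 12 summed macrophage and monocyte markers and of Asah1, and the median log2 deviation of the 35 genes from their means over libraries, with a point for each library and a line at the mean of each run within each group, HOILKO left of WT and the second run left of the first. Ctss and the sum of the 12 markers are lower in all 5 libraries of the second run than in any of the first. The sum leaves out Cd14 and Csf1r, the tested markers that were not called between the runs. Asah1 shows a gap of smaller size, between 156 and 172 per M.

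The rest of the lysosomal pathway was described with 5 lists of 115 further genes, of which 112 were in the table and 109 were tested. With all 10 libraries limma called 0 of the 109 by genotype, and 14 (12.8%) had an unadjusted p under 0.05, against 9.48% of all tested genes. With the 8 libraries that match their labels it again called 0, and 19 (17.4%) had an unadjusted p under 0.05, against 13.1% of all tested genes. Of the 39 hydrolases and cofactors, Plbd1, a phospholipase B-like protein, came closest. It had 90.5, 71.0, 87.2 and 100.1 per M in HOILKO 2 to 5 and 120.1, 118, 113 and 112 per M in WT 3 to 6. These groups do not overlap (log2 fold change −0.42 ± 0.09 with 8 libraries, limma adjusted p = 0.0593, and −0.33 ± 0.10 with 10, adjusted p = 0.351), and the libraries at odds with their labels had 118 (HOILKO 1) and 114 per M (WT 2). With 8 libraries the groups did not overlap for 13 of the 109 genes and 6.71% of all tested genes. The other hydrolases named by the same rule, with 8 libraries, were Ctsk (−0.65, adjusted p = 0.165), Idua (0.24, 0.361) and Galc (−0.16, 0.375), all by limma. With 10 libraries they were at −0.50, 0.12 and −0.12.

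Among the 24 further membrane proteins, Cd68, a glycoprotein used as a macrophage marker, had a log2 fold change of 0.78 ± 0.19 with 8 libraries (limma adjusted p = 0.0842) and 0.43 ± 0.24 with 10 (limma adjusted p = 0.588). Tmem9 (−0.24), Slc36a1, an amino acid transporter (0.41), and Abca2, a lipid transporter (0.20), had limma adjusted p-values of 0.278, 0.275 and 0.296 with 8 libraries, and were at −0.24, 0.30 and 0.14 with 10. Among the 18 further V-ATPase subunits and assembly factors, Vma21, an assembly chaperone of V0, had 33.9, 31.3, 31.1, 29.9 and 29.9 per M in HOILKO libraries and 39.99, 37.7, 33.3, 35.5 and 38.5 per M in WT libraries. Only HOILKO 1 and WT 4 crossed over, and the log2 fold change was −0.24 ± 0.08 with 10 libraries (limma adjusted p = 0.359) and −0.24 ± 0.09 with 8 (limma adjusted p = 0.250). Atp6v0a4 (0.61), Atp6v1g3 (−0.58) and the assembly factor Ccdc115 (−0.16) had limma adjusted p-values of 0.249, 0.335 and 0.580 with 8 libraries, and were at 0.32, −0.42 and −0.25 with 10. Of the 12 sorting genes, Igf2r, the large mannose 6-phosphate receptor, had 179.7, 201.4, 208, 162 and 227 per M in HOILKO libraries and 161, 143, 140.1, 161 and 168 per M in WT libraries. Only HOILKO 4 fell inside the WT range (log2 fold change 0.33 ± 0.09 with 10 libraries, limma adjusted p = 0.314, and 0.38 ± 0.10 with 8, adjusted p = 0.111). Gnptab, which makes the mannose 6-phosphate tag, had a log2 fold change of 0.19 ± 0.07 with 10 libraries (limma adjusted p = 0.371) and 0.21 ± 0.07 with 8 (limma adjusted p = 0.239). The sorting adaptor Gga2 had 0.13 and the sorting receptor Sort1 0.12 with 10 libraries (limma adjusted p 0.692 and 0.660), and 0.21 and 0.10 with 8 (0.349 and 0.632). Of the 16 TFEB relatives and genes of mTORC1 on the lysosome, Flcn, which helps mTORC1 act on TFEB, had 74.3, 75.003, 85.4, 96.4 and 70.7 per M in HOILKO libraries and 60.2, 65.9, 66.9, 65.2 and 66.8 per M in WT libraries. The groups did not overlap, which held with 10 libraries for 2 of the 109 tested pathway genes and 1.59% of all tested genes. The log2 fold change of 0.30 ± 0.08 had a limma adjusted p of 0.314 with 10 libraries, and that of 0.29 ± 0.09 with 8 libraries one of 0.192. Mtor and Rptor, the kinase and the scaffold of that complex, each had 0.18 with 10 libraries (limma adjusted p 0.450 and 0.503), and Lamtor4, which anchors mTORC1 to the lysosome, −0.20 (0.495). With 8 libraries these were 0.21, 0.23 and −0.18.

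Between the runs these further genes leaned the same way as the members. Of the 109 tested, 86 (78.9%) were below 0, against 51.0% of all tested genes, and the median log2 fold change was −0.09. Limma called 4 (3.67%) as lower in the second run, against 0.309% of all tested genes, and 0 as higher. Among the called genes were Laptm5 (−2.61, adjusted p = 2.37e-06), a lysosomal membrane protein of blood cells, Nagpa (−0.50, 0.0401), the enzyme that uncovers the mannose 6-phosphate tag, and Atp6v0a4 (−0.82, 0.0443). Laptm5 had 0.29, 0.695, 0.966, 1.44 and 1.72 per M in the second run, against 5.02, 6.46, 5.65, 12.5 and 8.55 per M in the first, and the runs did not overlap. Laptm5 also passed the filter only through the first run, so a difference was built into its choice.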

How the data were processed

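Poly(A) RNA of sorted AT2 cells was made into NEBNext Ultra libraries for NextSeq sequencing, per the labels' protocols. The authors deposited 1 table of 16154 Ensembl genes in 10 columns, a never-negative signal of normalized counts whose column totals lay between 6.94 and 7.43 M. Mouse build mm10, bcl2fastq 2.17 and edgeR 3.14.0 appear in the submitters' processing notes, deposited without roles, and the sources used here give no aligner, annotation, strand setting or normalization. Whole reads were not recovered (by library, 22.7% to 51.7% of low values lay within 0.1 of a whole multiple of the lowest step), so no count test was run. Depth was estimated at 7.69 to 13.2 M reads by dividing each total by the median of its lowest positive values. That median was not shown to stand for 1 read, so the depth is rough. Values under 1 per M rest on few reads.

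Every value was divided by 7.14, the mean of the column totals in M. Symbols, coordinates and exon lengths came from GENCODE M21 (mm10) for 16026 of the IDs. Genes that reached 1 per M in 5 or more libraries (12946, all 35 members among them) were fitted with limma 3.58.1 in R 4.3.3, with a mean-variance trend, on log2(per M + 0.5). A log2 fold change on that scale understates the change of low genes. Comparisons were HOILKO minus WT with 10 and with 8 libraries, second minus first run with group as covariate, and group by run. Deviations of same-numbered libraries from their group means had correlations of 0.03 to 0.31. Differently numbered libraries were not compared, so these values cannot decide whether replicate numbers pair the libraries. The fits were tested on simulated data.

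Values in every library are given for the 8 members with the smallest p by genotype, the 4 with the smallest p in 8 libraries, the 3 highest and 2 lowest per kb, Tfeb, Ctss and the V-ATPase paralogs; others are said to be chosen after their values were seen. Of each other pathway list up to 4 genes with the smallest p are named. The members and lists were chosen with earlier results of these data known. Other pseudocounts, filters, scalings and library sets were tried. Promoters came from RefSeq (GRCm38.p6). Markers of neutrophils, lymphocytes, endothelium, fibroblasts, club cells and AT1 cells were also listed; limma called none of those tested between groups or runs.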

Additional observations from a re-analysis of the deposited data

Results flagged for a closer look

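Atp6v0a1 stood apart in HOILKO 2, where it was lowest at 242 per M, against 267 to 277 per M in the other HOILKO libraries. The gap to the nearest library took up 0.717 of the group's range, above the critical value of Dixon's test for 5 samples. This was 1 of 70 groups of values checked, and chance alone gives about 1 in 20.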

How the results depend on the processing

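Under every setting run, limma called 0 members by genotype. Counts of genes called are given here as a share of the genes tested under the same setting. With all 10 libraries it was 0 (1227 genes at an unadjusted p under 0.05), and with run as covariate 0.0077%. It was 0.317% in the second run alone and 0.402% without HOILKO 1 and WT 2. With a replicate block, although a pairing by number was not shown, it was 2.02%. Leaving out single libraries gave 0 to 0.031%, the highest without HOILKO 1. With 8 libraries it was 0.402%, without a filter on low values 0.025%, with the replicate block 3.07%, with sex as covariate 0.209%, in the first run alone, where WT 3 is the one WT library and is assumed to vary like the others, 1.42%, and 0.147% to 0.772% leaving out single libraries (0.247% without HOILKO 3, 0.649% without HOILKO 4, 0.201% without WT 4, 0.147% without WT 5, 0.772% without WT 6). In the first run alone the median member was at −0.063. The cause of these shifts was not tested.

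Between the runs 0.626% of genes were called. Without the libraries at odds with their labels it was 0.216%, with sex as covariate 0.34%, among males 0.378%, without a filter 0.142%, with at least 5 per M 0.501%, with array weights 0.958%, and 0.139% (without WT 2) to 1.07% (without HOILKO 1) leaving out single libraries, with 0.332% without HOILKO 4, 0.34% without WT 3, 0.178% without WT 5 and 0.216% without WT 6. Members called were 2 as reported and 1 to 2 leaving out single libraries (Ctss, with Cd63 without HOILKO 3 or WT 4). There was 1 (Ctss) without both libraries at odds with their labels, with sex, among males, without a filter or with equal totals, and 0 with at least 5 per M, where Ctss is not tested and Asah1 has an adjusted p of 0.0517. The median member was at −0.17 as reported, −0.096 without both, and −0.20 to −0.11 leaving out single libraries. The interaction called 0.0154% of genes, and 0.185% without both libraries.

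The low depth of Lipa and Ctss limits the precision of their values.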
